A study of Mus musculus with 10 samples.

Results

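The 37 genes described here encode proteins that make, bind, shorten or read the poly(A) tail of messenger RNA, or that cut the 3′ end to which the tail is added. They were chosen by gene symbol, from a list of known poly(A) tail and 3′ processing factors that includes Pabpn1 itself. No value of these genes entered the rule, but earlier results of these data were known when the list was made. All 37 had probes on the array, 98 in all, among 19057 gene symbols and 45281 probes. The RNA came from IM2 cells, a mouse muscle line whose confluent myoblasts were held for 4 days under fusion conditions to form myotubes, and was measured on Illumina mouse bead arrays. All cultures carried a FLAG-tagged PABPN1. In the D7E group (3 arrays) it was a mutant form at a level that the labels call similar to WTA, in the WTD group (3 arrays) it was the wild-type form at a low level, and in the WTA group (2 arrays) it was the wild-type form. No culture without the tagged protein is among these groups, no treatment was given, and the sources used here do not give the mutation, the promoter or the number of clones behind each group. Whether the arrays of a group come from separate cultures is not stated in the labels, and the spread behind every p-value may then be technical.

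Cleavage and polyadenylation release a nascent transcript and give it a poly(A) tail. The cleavage and polyadenylation specificity factor reads the polyadenylation signal and makes the cut, cleavage stimulation factor binds downstream of it, cleavage factors I and II assist, and a poly(A) polymerase then adds the tail. PABPN1 coats the growing nuclear tail and stimulates the polymerase, cytoplasmic PABPC proteins take over after export, and the deadenylases PAN2-PAN3, CCR4-NOT and PARN shorten the tail. Alanine-expanded PABPN1 causes oculopharyngeal muscular dystrophy, a late-onset muscle disease, which is the disease named in the series title.

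Before the results, 3 properties of the arrays matter. The WTD signals were deposited in a different row order from the probe names, and every WTD value below rests on an order restored through the WTA arrays that stand in both sets. Between 13653 and 17565 probes were detected per array, with both ends of that range in the WTD group. For WTD replicates 1 and 3 detection was estimated here, as described below, which gave 16241 and 17565 probes. By their deposited detection p-values these 2 arrays had 14272 and 12027. The 95th percentile of the raw signal was 3.20 times the median on WTD replicate 2 and 8.37 times on WTD replicate 3, with the other 6 arrays between 4.84 and 8.21. The part of these differences in the results was not tested. The cultures carried the markers of the labelled cell type: of 11 myotube markers the array holds 10, and all 10 were detected on all 8 arrays, with group mean levels of 9.11 to 15.03 on the log2 scale. Of the markers of other cells, Col1a1, Col3a1 and the myoblast factor Myod1 were detected on all 8 arrays, while Pax7, Fabp4 and Plin1 were detected on none, and Ptprc, Adgre1, Pecam1, Cdh5, Thy1 and Myf5 on 1 each. Pdgfra, Dcn, Adipoq, Lep, Csf1r, Kdr and Tek were detected on 2 to 5 arrays, and Mki67, Ccnb1 and Cd68 had no probe. No marker probe passed the threshold in any comparison. The smallest adjusted p among them was 0.0832, for Col1a1, a fibroblast collagen, at -0.74 in WTD against WTA. In such bulk RNA, fewer cells of a type and less RNA per cell cannot be told apart.

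Of the 37 genes, 30 had a probe detected on at least 2 arrays, and 59 of the 98 probes were tested. Detection held on all 8 arrays for 41 of these 59 probes. The 7 genes without a tested probe were Cpsf2, Cpsf3, which carries the endonuclease, Cpsf4, Cstf2t, Pan3, Cnot6 and Cnot8, whose probes were not well above background on more than 1 array. Nothing can be said here of a change in those genes. Among the tested genes, Pabpc4, a cytoplasmic poly(A)-binding protein, had the highest mean level, and Exosc3, an exosome subunit, had the lowest. Since probes differ in their binding, this order describes the signals and not the amounts of the transcripts.

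No tested member of the list passed the threshold in any of the 3 comparisons. With limma fitted over all 18815 tested probes and a Benjamini-Hochberg adjusted p under 0.05, 0 of 59 member probes were called in WTD against WTA, where 1.43% of all tested probes were called. In D7E against WTA, 0 of 59 were called against 0.569% of all tested probes, and in D7E against WTD 0 of 59 against 0.0266%. The smallest adjusted p of a member was 0.112, 0.133 and 0.452 in these comparisons, in that order. With shares this low in the background, a count of 0 among 59 probes is near what the whole array shows.

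At an unadjusted p under 0.05 the members also stood near the rest of the array in both comparisons with WTA, and below it in D7E against WTD. In WTD against WTA 10 of the 59 probes reached it (16.9%), 5 higher and 5 lower, where 14.1% of all tested probes did, 6.85% higher and 7.22% lower. For D7E against WTA the count was 8 (13.6%), 4 higher and 4 lower, beside 12.4% of all tested probes, 6.48% higher and 5.87% lower. Only 2 probes (3.39%), both lower, reached it in D7E against WTD, beside 8.12% of all tested probes, 4.51% higher and 3.6% lower. Both comparisons with WTA use the same 2 WTA arrays, so their values are not independent of each other.

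Differences were spread around 0 in both directions. The median log2 difference of the 59 probes was -0.029 in WTD against WTA, beside -0.014 for all tested probes, with 27 probes above 0 and 32 below. In D7E against WTA it was -0.025 beside -0.002, again with 27 above and 32 below, and in D7E against WTD it was 0.010 beside 0.010, with 30 above and 29 below. The median size of a difference without its sign was 0.19, 0.15 and 0.15 in the members and 0.18, 0.17 and 0.14 in all tested probes. In the values as reported, no member probe differed by more than 1 log2 unit, or 2-fold, in any comparison, where 1.21%, 0.67% and 0.229% of all tested probes did. With each array centred on its median instead, D7E against WTA gave 1.15 for Cstf3, 1.10 for Wdr33 and 1.09 for Pabpn1. Relative to the shift of all tested probes these were 0.88, 0.84 and 0.83. Wdr33 then gave 1.01 in D7E against WTD, or 0.60 relative to the shift.

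**Figure D1:**
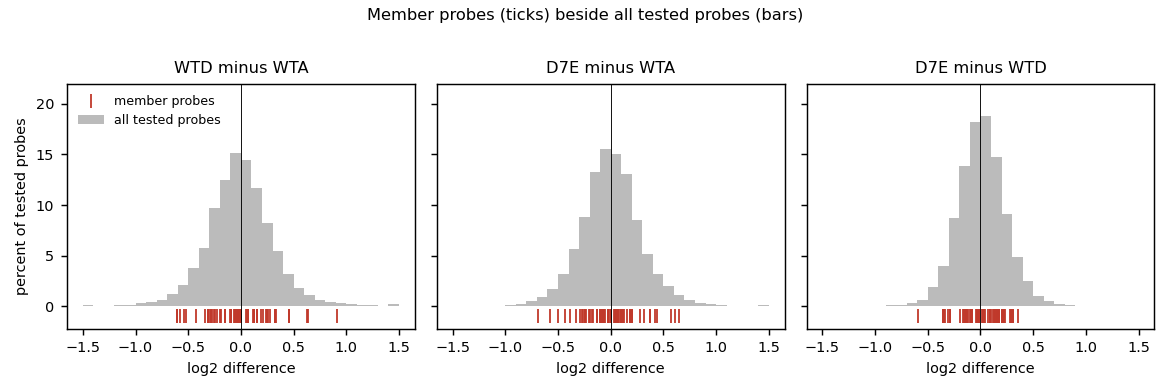
Log2 differences of the 59 member probes (ticks under the axis) and of all 18815 tested probes (bars, in percent of tested probes, with the end bars also holding all values beyond the axis) in WTD minus WTA, D7E minus WTA and D7E minus WTD. The ticks lie between -0.61 and 0.91, between -0.69 and 0.65, and between -0.59 and 0.36, inside the range of the bars and on both sides of 0.

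The arrays of 2 groups often failed to overlap, in members as elsewhere. All WTD arrays lay above both WTA arrays for 9 member probes (15.3%) and below them for 14 (23.7%), beside 14% and 14.7% of all tested probes. All D7E arrays lay above both WTA arrays for 6 member probes (10.2%) and below for 12 (20.3%), beside 15.7% and 15.8% of all tested probes. Between D7E and WTD the counts were 3 (5.08%) above and 5 (8.47%) below, beside 7.52% and 6.7%. The counts against WTA include probes of Cnot3, Rbbp6 and Exosc3 that passed the detection filter only through their brighter group. Their separation follows in part from the filter, which also applied to all tested probes.

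What the arrays could have shown is set by the width of the intervals. The 95% interval of a member's log2 difference reached a median of 0.42 to each side of the estimate in both comparisons with WTA and 0.37 in D7E against WTD. In the values as reported, it lay wholly within 2-fold in either direction for 54, 55 and 59 of the 59 probes. The probes whose interval in WTD against WTA went beyond 2-fold belonged to Cnot1, Cnot3, Cstf3, Pabpn1 and Zc3h14, and those in D7E against WTA to Cstf3, Pabpc4, Pabpn1 and Papola. As a fold, the median reach to each side was 1.34-fold in the comparisons with WTA and 1.30-fold in D7E against WTD.

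**Figure D2:**
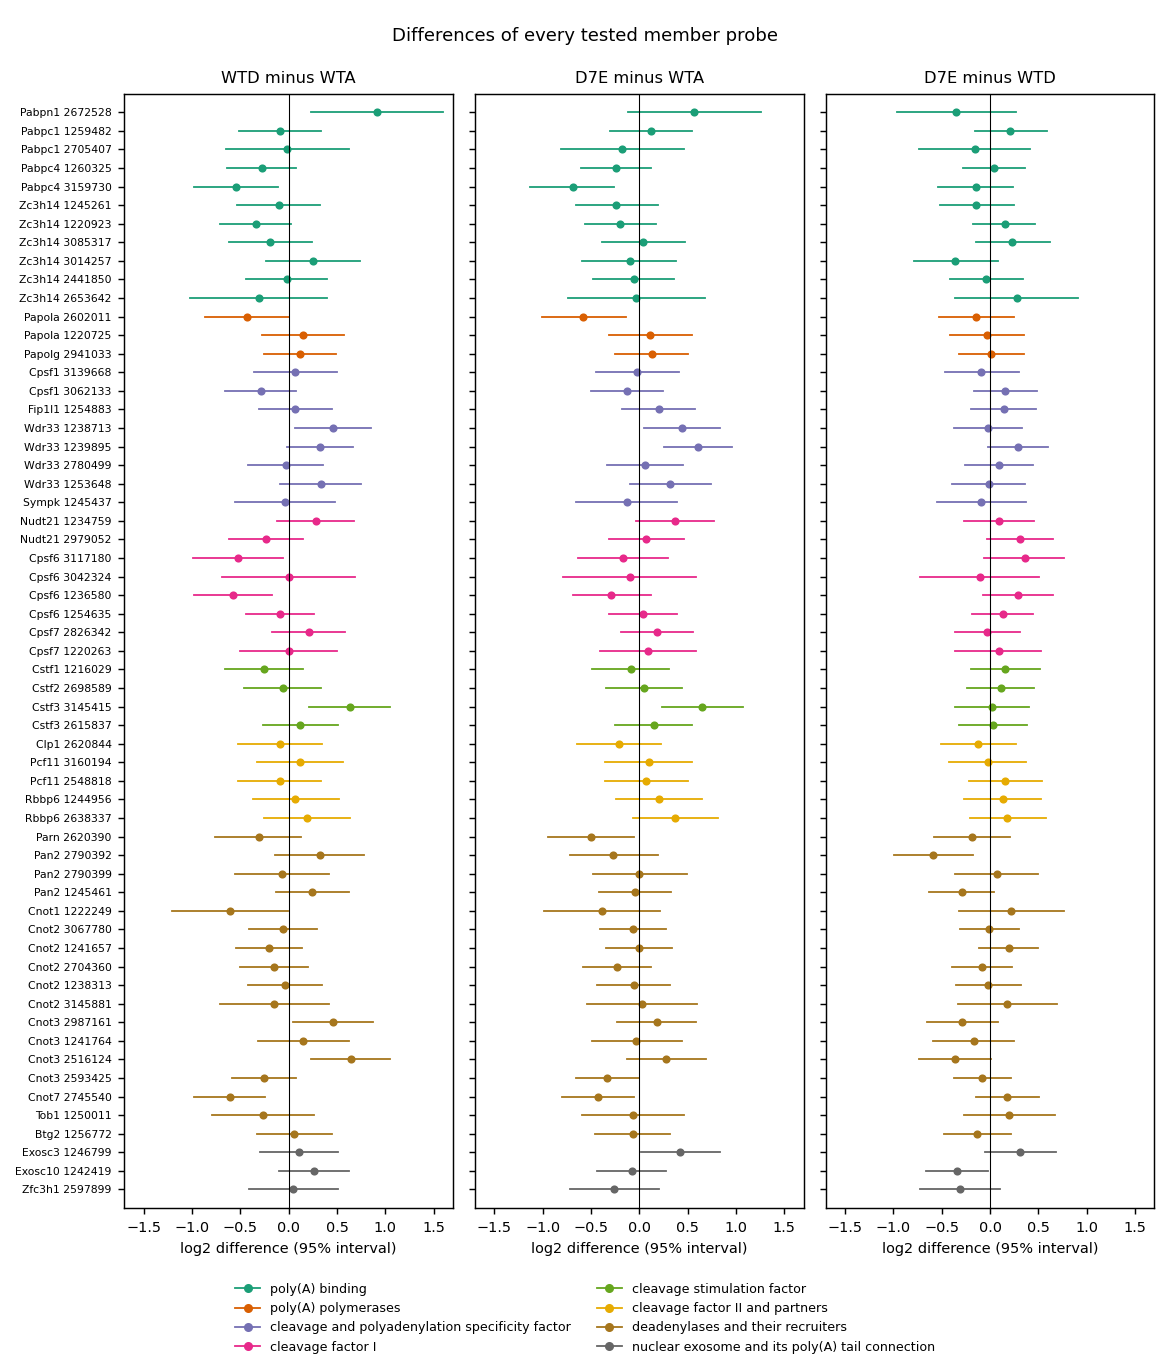
Log2 difference (point) and 95% interval (line) of every tested member probe in WTD minus WTA, D7E minus WTA and D7E minus WTD, ordered and coloured by the role of the gene, with the number of the probe after the symbol. Most intervals cross 0, the widest belongs to a Zc3h14 probe, and no role stands wholly on one side of 0 in all 3 panels.

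Poly(A)-binding proteins were represented by Pabpn1, Pabpc1, Pabpc4 and Zc3h14, a zinc finger protein that binds polyadenosine, with 11 tested probes. Pabpn1 has 1 probe, and the sources used here do not say whether it reads the introduced transcript, the cell's own, or both, so it does not check the labels. Its normalized log2 intensity was 9.16, 9.58 and 10.58 on the D7E arrays, 10.24, 10.26 and 9.87 on the WTD arrays, and 9.24 and 9.18 on the WTA arrays. Every WTD array stood above both WTA arrays, although the labels name WTD as the low-level group, while D7E replicate 1 lay just under the WTA values and D7E replicate 3 above all other arrays. The log2 difference of WTD against WTA was 0.91 ± 0.32 (SE, 1.88-fold, limma adjusted p = 0.205), the highest of the 59 member probes in that comparison. D7E differed from WTA by 0.57 ± 0.32 (adjusted p = 0.516) and from WTD by -0.35 ± 0.28 (adjusted p = 0.800), which turned to 0.43 with arrays centred on their medians (0.02 relative to the shift of all tested probes).

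The call for Pabpn1 in WTD changed with 1 array. Without D7E replicate 3, an array that takes no part in the difference but enters the shared estimate of the spread, the WTD difference was again 0.91 with an SE of 0.19 and passed the threshold (adjusted p = 0.0404). Normalized and fitted within the raw table that holds only WTD and WTA arrays, it was 0.89 and missed the threshold (adjusted p = 0.0552). Over all 17 alternatives the difference was between 0.67 and 1.04 and its adjusted p between 0.0404 and 1. Without D7E replicate 3 the D7E differences were 0.16 against WTA and -0.74 against WTD, and without D7E replicate 1 they were 0.87 and -0.04, none past the threshold.

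Both tested Pabpc4 probes averaged lower in D7E and in WTD than in WTA, though neither passed the threshold, and with arrays centred on their medians the brighter one turned to 0.35 in D7E against WTA (0.09 relative to the shift) and the second to -0.17 (-0.43 relative to it). On its second probe the levels were 9.26, 8.96 and 9.01 in D7E, 9.13, 8.97 and 9.58 in WTD, and 9.68 and 9.86 in WTA. Both WTA arrays were above all other arrays. The log2 difference was -0.69 ± 0.20 in D7E against WTA (0.618-fold, limma adjusted p = 0.170), the lowest of the member probes in that comparison, and -0.54 ± 0.20 in WTD against WTA (adjusted p = 0.234). The brighter probe, at 11.66 ± 0.09 in D7E, 11.62 ± 0.17 in WTD (SD, n = 3 each) and 11.90 ± 0.05 in WTA (SD, n = 2), gave smaller differences of -0.24 and -0.28 (adjusted p = 0.615 and 0.490). D7E and WTD differed by -0.15 ± 0.18 and 0.04 ± 0.15 on these probes.

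Pabpc1, the main cytoplasmic poly(A)-binding protein, averaged 8.56 ± 0.24 in D7E, 8.35 ± 0.23 in WTD (SD, n = 3 each) and 8.44 ± 0.03 in WTA (SD, n = 2) on its brighter probe, with overlapping groups. Its dimmer probe had the largest SD of any member in the WTA group, 0.81, from levels of 4.33 and 5.47. Zc3h14 had 6 tested probes, the most of any member, with differences from -0.34 to 0.25 in WTD against WTA and from -0.24 to 0.04 in D7E against WTA. None of them reached an unadjusted p under 0.05 in the 3 comparisons. Across the 11 probes of this role the median difference was -0.10 in WTD against WTA, -0.10 in D7E against WTA and -0.04 in D7E against WTD.

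**Figure D3:**
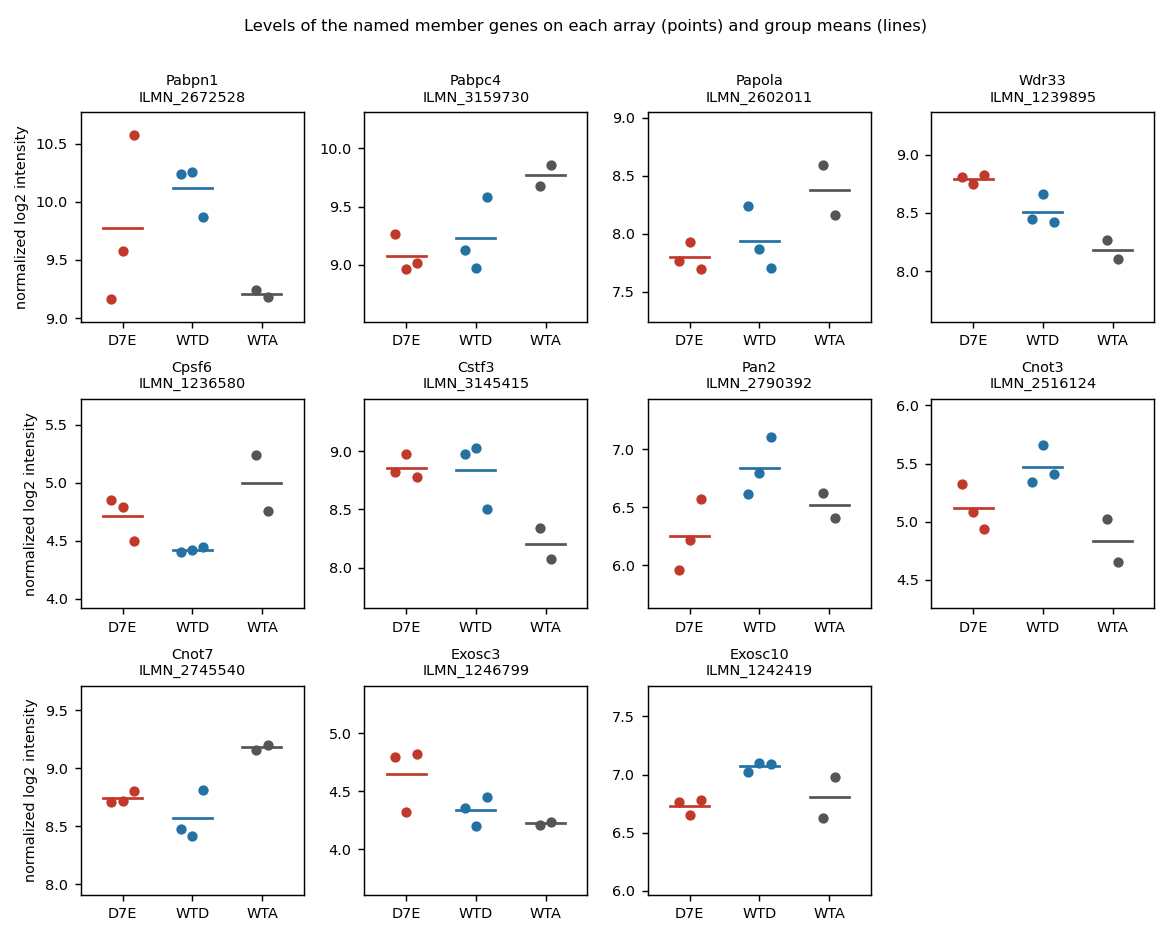
Normalized log2 intensity of 1 probe of each of 11 member genes on each array (points) with the group means (lines), with D7E, WTD and WTA from left to right. All panels span the same number of log2 units, and the spread of the D7E arrays for Pabpn1, from 9.16 to 10.58, is the widest of the panels.

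The poly(A) polymerases were Papola, the canonical nuclear enzyme, and Papolg, its relative. Papola read 7.77, 7.93 and 7.70 in D7E, 8.24, 7.87 and 7.71 in WTD, and 8.59 and 8.16 in WTA on its brighter probe. The D7E arrays lay below both WTA arrays, while the WTD range reached above the lower WTA array. D7E was lower than WTA by a log2 difference of -0.58 ± 0.20 (0.671-fold, limma adjusted p = 0.243) and WTD by -0.43 ± 0.20 (adjusted p = 0.356), neither past the threshold. Without WTA replicate 1, the higher WTA array, these values were -0.36 and -0.22, without WTA replicate 2 the WTD value was -0.65, and with arrays centred on their medians the D7E value was -0.09 (-0.35 relative to the shift). Another Papola probe was detected on 1 array each of D7E and WTD and on neither WTA array, and gives no fold. Papolg averaged 6.47 ± 0.09 in D7E, 6.46 ± 0.22 in WTD and 6.35 ± 0.06 in WTA (SD, n = 3, 3 and 2), and none of its differences exceeded 0.13.

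Within the cleavage and polyadenylation specificity factor, Cpsf1, Fip1l1, Wdr33 and the scaffold Sympk were tested. Wdr33, a subunit that contacts the polyadenylation signal, had the smallest adjusted p of any member in D7E against WTA. Its levels were 8.81, 8.75 and 8.83 in D7E, 8.45, 8.66 and 8.42 in WTD, and 8.27 and 8.10 in WTA. The 3 groups did not overlap on this probe, with D7E highest and WTA lowest. D7E differed from WTA by 0.61 ± 0.16 on the log2 scale (1.53-fold, limma adjusted p = 0.133), from WTD by 0.29 ± 0.14 (adjusted p = 0.655), and WTD from WTA by 0.32 ± 0.16 (adjusted p = 0.399).

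The D7E difference of Wdr33 was called under 2 of the 17 alternatives, over which its adjusted p ran between 0.0279 and 0.807. With quantile normalization alone it was 0.48 (adjusted p = 0.0279), and on the authors' normalized values 0.51 (adjusted p = 0.0283). With arrays centred on their medians it was 1.10, or 0.84 relative to the shift of all tested probes (adjusted p = 0.807). Of the other 3 tested Wdr33 probes, the brightest gave 0.44 in D7E and 0.46 in WTD against WTA (adjusted p = 0.326 and 0.263), or 0.25 and 0.27 without WTA replicate 2. A dim one gave 0.32 and 0.33, and the probe annotated to the RefSeq transcript gave 0.06 and -0.03. The 4 probes are annotated to 4 different transcript records, and the differences between the probes were not tested.

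Cpsf1, the large subunit, had 2 tested probes with differences of -0.02 and -0.13 in D7E against WTA and of 0.07 and -0.29 in WTD against WTA. Fip1l1, which links the complex to the polymerase, averaged 6.18 ± 0.19 in D7E, 6.05 ± 0.15 in WTD and 5.98 ± 0.07 in WTA (SD, n = 3, 3 and 2), and Sympk 6.21 ± 0.39, 6.30 ± 0.25 and 6.34 ± 0.29 in the same groups. The groups of both genes overlapped in all comparisons.

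Cleavage factor I, which binds upstream of the cleavage site and influences which site is used, was represented by all 3 of its genes, Nudt21, Cpsf6 and Cpsf7. Cpsf6 was dim, and its arrays read 4.85, 4.79 and 4.50 in D7E, 4.40, 4.42 and 4.45 in WTD, and 5.24 and 4.76 in WTA on the probe with the smallest p. The WTD arrays lay below all others, and 1 of the 3 WTD arrays was above background there. The log2 difference in WTD against WTA was -0.58 ± 0.19 (limma adjusted p = 0.172). It was -0.35 without WTA replicate 1, -0.14 with quantile normalization alone and -0.17 on the authors' values. A second probe gave -0.52 ± 0.21 (adjusted p = 0.285), and the other 2 tested probes gave 0.00 and -0.09. Nudt21, the RNA-binding subunit, averaged 7.83 ± 0.21 in D7E, 7.73 ± 0.19 in WTD and 7.46 ± 0.11 in WTA (SD, n = 3, 3 and 2), a log2 difference of 0.37 ± 0.18 in D7E against WTA (adjusted p = 0.452), and its dimmer probe gave 0.07. Cpsf7 had differences from 0.00 to 0.21 in both comparisons with WTA.

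Cleavage stimulation factor binds the downstream element, and Cstf3 is its scaffold. Cstf3 on its brighter probe read 8.82, 8.98 and 8.78 in D7E, 8.98, 9.03 and 8.50 in WTD, and 8.34 and 8.07 in WTA. Both WTA arrays were below every D7E and WTD array. The log2 difference was 0.65 ± 0.19 in D7E against WTA (1.57-fold, limma adjusted p = 0.180) and 0.63 ± 0.19 in WTD against WTA (1.55-fold, adjusted p = 0.151), and D7E and WTD differed by 0.02 ± 0.17. With arrays centred on their medians the first 2 were 1.15 and 0.40, or 0.88 and 0.49 relative to the shift. Without WTD replicate 3, the lowest WTD array, the WTD difference was 0.80 and passed the threshold (adjusted p = 0.0405, between 0.0405 and 1 over all 17 alternatives). The other Cstf3 probe, annotated to another transcript record, averaged 5.83 ± 0.20 in D7E, 5.80 ± 0.15 in WTD and 5.68 ± 0.18 in WTA (SD, n = 3, 3 and 2), with overlapping groups and differences of 0.15 and 0.12. The difference between these probes was not tested. Cstf1 and the RNA-binding subunit Cstf2 overlapped between groups, with log2 differences between -0.26 and 0.16 in the 3 comparisons.

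Cleavage factor II and its partners, here Clp1, Pcf11 and Rbbp6, were dim, with group means between 4.23 and 5.01. Their 5 probes had differences from -0.09 to 0.19 in WTD against WTA, from -0.21 to 0.37 in D7E against WTA and from -0.12 to 0.18 in D7E against WTD, and none reached an unadjusted p under 0.05. Neither of the 2 tested Rbbp6 probes, of 5 on the array, was above background on either WTA array, so only a bound can be given for them: D7E was at least 1.10-fold higher than WTA on one and at least 1.07-fold on the other (adjusted p = 0.766 and 0.509). Another Rbbp6 probe, untested, was detected on WTA replicate 1 alone, at 4.84. Each bound sets the mean of the brighter group against a floor on each array of the dimmer one, namely the level of its dimmest detected probe, or the level measured there where that is higher. Such a bound describes the measured means and is not a lower limit for a difference between conditions. Both Rbbp6 probes, and those given bounds below for Cnot3, Btg2, Exosc3 and Ncbp2, passed the detection filter only through their brighter group. Their direction therefore follows in part from the filter.

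The deadenylases and their recruiters were the largest group, with 11 genes, of which 8 were tested by 17 probes. Cnot7, a catalytic subunit of CCR4-NOT, had the smallest adjusted p of any member in WTD against WTA. It read 8.71, 8.72 and 8.80 in D7E, 8.48, 8.42 and 8.81 in WTD, and 9.16 and 9.20 in WTA on its only tested probe. Its other probes were detected on no array. Both WTA arrays were above all others, and WTD replicate 3 lay beside the D7E arrays. WTD was lower than WTA by a log2 difference of -0.61 ± 0.17 (0.656-fold, limma adjusted p = 0.112), short of the threshold. For D7E the difference was -0.43 ± 0.17 (adjusted p = 0.306), and with arrays centred on their medians it turned to 0.07, or -0.19 relative to the shift of all tested probes.

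Cnot7 passed the threshold in WTD against WTA under 3 alternatives. The log2 difference was -0.50 with quantile normalization alone (adjusted p = 0.0425), -0.53 on the authors' normalized values (adjusted p = 0.0401) and -0.73 without WTD replicate 3 (adjusted p = 0.0413). Its sign in this comparison was negative under all 17 alternatives, with values between -0.84 and -0.50 and adjusted p between 0.0401 and 1.

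**Figure D4:**
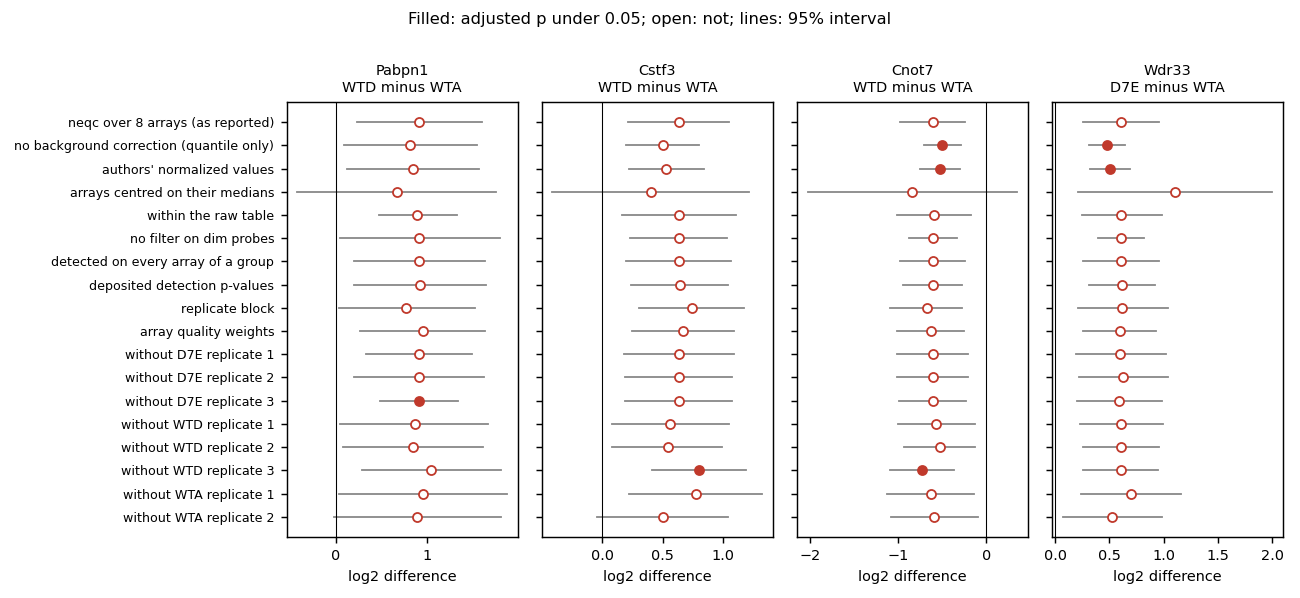
Log2 difference (circle) and 95% interval (line) of the 4 member probes that passed the threshold under any alternative, for the values as reported and for each of the 17 alternatives, with filled circles where the adjusted p was under 0.05. Filled circles appear in 1 setting for Pabpn1, 1 for Cstf3, 3 for Cnot7 and 2 for Wdr33.

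Cnot3, a non-catalytic subunit of CCR4-NOT, had 4 tested probes that differed in sign. It read 5.32, 5.08 and 4.94 in D7E, 5.34, 5.66 and 5.41 in WTD, and 5.02 and 4.65 in WTA on the probe with the smallest p, which is annotated to no transcript record. WTD lay above WTA and D7E on every array. The log2 difference in WTD was 0.64 ± 0.19 against WTA (1.56-fold, limma adjusted p = 0.138), or 0.18 with quantile normalization alone and 0.21 on the authors' values, and D7E differed from WTD by -0.36 ± 0.17 (adjusted p = 0.629), a difference that turned to 0.02 with arrays centred on their medians (-0.38 relative to the shift). The brightest Cnot3 probe gave 0.46 ± 0.19 in WTD against WTA (adjusted p = 0.282), or 0.27 with quantile normalization alone and 0.30 on the authors' values, and another gave 0.15. The fourth tested probe was not well above background in D7E or WTD but was detected on both WTA arrays. It passed the detection filter only through WTA, so its direction was fixed by the filter and does not count as a lower level in the other groups. The measured means of WTD and D7E were at least 1.02-fold and 1.05-fold below that of WTA (limma adjusted p = 0.502 and 0.404).

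Cnot1, the scaffold of CCR4-NOT, read 5.45, 5.04 and 4.94 in D7E, 4.94, 4.34 and 5.50 in WTD, and 5.54 and 5.53 in WTA on its only tested probe. Its other probes were each detected on at most 1 array. The WTD arrays were the most dispersed, with an SD of 0.58. The log2 difference was -0.61 ± 0.28 in WTD against WTA (adjusted p = 0.349) and -0.39 ± 0.28 in D7E against WTA (adjusted p = 0.639). The WTD value was -0.33 without WTD replicate 2, -0.17 with quantile normalization alone and -0.20 on the authors' values, and the D7E value -0.12 and -0.13 under these normalizations. Cnot2, another non-catalytic subunit, had 5 tested probes, and all 5 were below 0 in WTD against WTA, between -0.20 and -0.04, with none at an unadjusted p under 0.05.

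Parn, a poly(A)-specific ribonuclease that acts outside these complexes, read 5.91, 6.06 and 5.60 in D7E, 5.89, 5.87 and 6.38 in WTD, and 6.29 and 6.43 in WTA. The D7E arrays were below both WTA arrays. D7E differed from WTA by -0.50 ± 0.20 (0.706-fold, limma adjusted p = 0.324), and WTD by -0.31 ± 0.20 (adjusted p = 0.539). The D7E value was -0.21 with quantile normalization alone, -0.24 on the authors' values and -0.13 with arrays centred on their medians, and the WTD value was -0.14 and -0.15 under the first 2 of these and -0.48 without WTD replicate 3.

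Pan2, the catalytic subunit of PAN2-PAN3, had the smallest adjusted p of any member in D7E against WTD. Levels on that probe were 5.96, 6.22 and 6.57 in D7E, 6.61, 6.79 and 7.10 in WTD, and 6.62 and 6.41 in WTA. The highest D7E array lay just under the lowest WTD array. The log2 difference in D7E against WTD was -0.59 ± 0.19 (0.666-fold, limma adjusted p = 0.452), and it turned to 0.02 with arrays centred on their medians, or -0.38 relative to the shift, and was -0.29 with quantile normalization alone and -0.33 on the authors' values. Its other tested probes gave -0.29 ± 0.15 and 0.07 ± 0.20.

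Tob1 and Btg2, antiproliferative proteins that bring CCR4-NOT to its targets, had 1 tested probe each. Tob1 averaged 9.15 ± 0.06 in D7E, 8.95 ± 0.39 in WTD and 9.22 ± 0.48 in WTA (SD, n = 3, 3 and 2), with overlapping groups. Btg2 was detected on no D7E array, 2 WTD arrays and 1 WTA array, and WTD was at least 1.03-fold higher than D7E (adjusted p = 0.875). Across the 17 probes of the deadenylases, 6 were above 0 and 11 below in WTD against WTA, 4 above and 13 below in D7E against WTA, and 6 above and 11 below in D7E against WTD. The counts below 0 against WTA include the Cnot3 probe whose direction was fixed by the filter. Genes with several probes, such as Cnot2 and Cnot3, count more than once. The median over all tested probes was -0.014, -0.002 and 0.010 in these comparisons. With arrays centred on their medians, most of the 17 were above 0 in D7E against WTA. Relative to the shift of all tested probes they stood on both sides of 0.

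The nuclear exosome degrades RNA from the 3′ end, and Zfc3h1 connects it to polyadenylated nuclear transcripts. Exosc10, a catalytic exosome subunit, read 6.76, 6.65 and 6.78 in D7E, 7.02, 7.10 and 7.09 in WTD, and 6.63 and 6.98 in WTA. All D7E arrays were below all WTD arrays. The log2 difference in D7E against WTD was -0.34 ± 0.15 (0.790-fold, limma adjusted p = 0.591), and it turned to 0.31 with arrays centred on their medians, or -0.10 relative to the shift, and was -0.19 with quantile normalization alone and -0.21 on the authors' values. Exosc3 read 4.80, 4.32 and 4.82 in D7E, 4.36, 4.20 and 4.45 in WTD, and 4.21 and 4.24 in WTA. It was not well above background on either WTA array, and the D7E mean was at least 1.11-fold above that of WTA (limma adjusted p = 0.378). Zfc3h1 averaged 8.36 ± 0.33 in D7E, 8.66 ± 0.21 in WTD and 8.61 ± 0.19 in WTA (SD, n = 3, 3 and 2), with overlapping groups.

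Probes of one gene often pointed in different directions. Of the 15 members with several tested probes, all probes had one sign in 6 genes for WTD against WTA, 8 for D7E against WTA and 5 for D7E against WTD. No member had probes of opposite sign that both reached an unadjusted p under 0.05. Taking the brightest tested probe of each gene gave 0 of 30 genes called in every comparison, with 7 (23.3%), 6 (20%) and 2 (6.67%) at an unadjusted p under 0.05 in WTD against WTA, D7E against WTA and D7E against WTD, beside 14.1%, 12.4% and 8.12% of all tested probes. The latter shares are over all probes, dim ones included. No share over the brightest probe of every gene was computed, so these sets are unlike.

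Replicate spread in the members was close to that of all tested probes. The median SD of a member probe was 0.160 in D7E, 0.205 in WTD and 0.143 in WTA, beside 0.157, 0.200 and 0.155 for all tested probes. Pabpn1 had the largest SD of the members in D7E, 0.73, and a Zc3h14 probe the largest in WTD, 0.63.

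Another 62 genes of poly(A) tail metabolism and mRNA decay outside the 37 were counted in the same way. Of these, 53 had a tested probe, and 0 of their 91 tested probes passed the threshold in any comparison with limma, with 10 (11%), 8 (8.79%) and 7 (7.69%) at an unadjusted p under 0.05 in WTD against WTA, D7E against WTA and D7E against WTD, beside 14.1%, 12.4% and 8.12% of all tested probes. The smallest adjusted p was 0.0934, for a dim probe of Paip2b, an inhibitor of PABPC, which read 4.34, 4.29 and 4.37 in D7E and 5.07 and 4.98 in WTA, a log2 difference of -0.70 ± 0.17. This probe was not well above background on any D7E array, so the D7E mean was at least 1.45-fold lower on it, while the brighter Paip2b probe, detected on all 8 arrays, gave -0.44 ± 0.18 (adjusted p = 0.344). Ddx6, a helicase that links deadenylation to decapping, read 9.93, 9.70 and 9.79 in D7E and 10.75 and 10.38 in WTA on 1 of its 5 tested probes (-0.76 ± 0.18, adjusted p = 0.101), and the other 4 gave -0.40 to 0.02. Ncbp2, the cap-binding subunit of the nuclear cap-binding complex, differed by 0.75 ± 0.21 in that comparison (adjusted p = 0.153), and by 0.39 ± 0.17 on its other probe.

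In WTD against WTA the other genes with the smallest p were Btg3, a relative of Btg2 (0.78 ± 0.24, adjusted p = 0.153), the exosome subunit Exosc5 (0.63 ± 0.20, adjusted p = 0.171) and the nocturnin gene Noct (0.49 ± 0.17, adjusted p = 0.208). All WTD arrays were above both WTA arrays for each of these 3 genes, which were picked by their p in this same comparison. The same separation held for 14% of all tested probes. Btg3 was not well above background in WTA on that probe, and its WTD mean was at least 1.51-fold higher. The other tested probes of Btg3 and Noct gave 0.27 ± 0.22 and 0.14 ± 0.19. Between D7E and WTD they were Exosc7, another exosome subunit, at 9.19, 9.38 and 9.60 in D7E and 8.24, 8.39 and 8.93 in WTD (0.87 ± 0.21, adjusted p = 0.252), Ncbp2 (0.53 ± 0.16, adjusted p = 0.414) and Paip2b (-0.47 ± 0.15, adjusted p = 0.444). Ncbp2 was not well above background in WTD on that probe, and its mean was at least 1.16-fold higher in D7E. The dim Paip2b probe was not well above background in D7E, and its mean was at least 1.24-fold lower there. The brighter probes of these genes gave 0.26 ± 0.19 for Ncbp2 and 0.03 ± 0.16 for Paip2b.

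Centring each array on its median, in place of quantile normalization, moved the median of all tested probes to -0.09 in WTD against WTA, 0.26 in D7E against WTA and 0.40 in D7E against WTD. The median of the member probes moved with it, to -0.09, 0.33 and 0.43, which is 0.07 above that of all tested probes in D7E against WTA and 0.02 above it in D7E against WTD. Levels and differences across groups are therefore relative to the whole array.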

How the data were processed

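The deposited raw tables hold, per the file headers, linear probe intensities and detection p-values that the authors left unnormalized. The authors' deposited normalized values are log2 intensities with one common median. Both raw tables contain the WTA arrays, with the same values, and these entered once, giving 8 arrays. Triplicates are named in the series text, but WTA replicate 3 was not analysed here. Total RNA was extracted with RNA Bee and amplified and biotin-labelled with the Illumina TotalPrep kit, per the labels.

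Row order of the WTD signals was restored by matching the pair of WTA ranks between the raw table and the normalized values: all 45281 probes matched, 0 kept their place and 0 matched after one array was shuffled. The detection p of WTD replicate 2 was not used in this matching, and its rank correlation with the signal was -0.9962 after it (0.0022 as deposited). Those of WTD replicates 1 and 3 followed their signals less closely (-0.7137 and -0.7108, other arrays -0.9873 to -0.9962). Each correlated slightly more strongly with the signal of another array (-0.7354 and -0.7113). Whether these p-values and signals come from the same hybridization was not tested. Detection p-values of these 2 arrays were therefore estimated from 23132 background probes, a departure from the planned design. On the other arrays this estimate gave the deposited call for 97.3% to 98.8% of probes and called more probes detected.

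Signals were normalized over the 8 arrays with neqc (limma 3.58.1, R 4.3.3, offset 16). Probes with detection p under 0.05 on at least 2 arrays (18815) were tested two-sided with lmFit and eBayes in one fit without covariates, with Benjamini-Hochberg adjustment and a threshold of 0.05. The procedure was tested on simulated data. Symbols came from the platform annotation: 34885 probes name 1 gene, 18 several, 10378 none. Named genes were Pabpn1, the 4 members with the smallest p in each comparison, the brightest, and the dimmest tested; Cnot1 and Parn were singled out after their values were seen, and the other members are described by role. The members and lists were chosen with earlier results of these data known. No slide or date is given, so batches were not tested, and the number of arrays limits the precision. Alternatives covered background correction, normalization, filter, detection p, replicate block, array weights and each array left out.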

Additional observations from a re-analysis of the deposited data

How the results depend on the processing

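The count of 0 called members held under 13 of 17 alternatives in WTD against WTA, 15 of 17 in D7E against WTA and all 16 in D7E against WTD. In WTD against WTA, 1 member probe and 1 member gene by the brightest probe were called with quantile normalization alone and on the authors' values, and 0 to 2 with an array left out (Pabpn1 without D7E replicate 3; Cstf3 and Cnot7 without WTD replicate 3). In D7E against WTA, 1 member probe (Wdr33) was called with quantile normalization alone and on the authors' values, and 0 genes by the brightest probe. The cause was not tested.

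Counts over all probes moved more. In WTD against WTA, 269 probes were called as reported, 62 without a filter, 0 with median centring and 2 to 409 with an array left out, the lowest without WTA replicate 1 and the highest without WTD replicate 3. In D7E against WTA the count was 107, with 271 by quantile normalization alone, 276 on the authors' values, 0 with median centring, 71 within the raw table, 59 without a filter, 301 with array weights and 0 to 186 with an array left out. In D7E against WTD it was 5, with 2 by quantile normalization alone, 2 on the authors' values, 0 with median centring, without a filter or with all deposited detection p-values, 1 with detection on every array of a group, 64 with array weights and 0 to 72 with an array left out. The cause was not tested.

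Deviations from the group mean correlated at -0.275 to 0.150 between same-numbered arrays of 2 groups. Between differently numbered ones the correlations ran from -0.402 to 0.402, with both ends at WTD replicate 3, against WTA replicates 1 and 2. The 2 WTA arrays deviate as mirror images, so their values cannot show whether same-numbered arrays are paired. With the replicate number as a block, 311, 52 and 7 probes were called in WTD against WTA, D7E against WTA and D7E against WTD, and 0 members.

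Median centring gave member medians of 0.326 in D7E against WTA and 0.425 in D7E against WTD. For the named genes, taken on the probe with the smallest p in each comparison, it turned the sign in D7E against WTD, to 0.43 for Pabpn1, 0.02 for Cnot3, 0.58 for Pabpc4, 0.55 for Papola, 0.02 for Pan2 and 0.31 for Exosc10, and in D7E against WTA, to 0.07 for Cnot7, 0.13 for Pan2 and 0.35 for Exosc10. With an array left out the signs that turned were in D7E against WTD those of Cstf3 (its range was -0.07 to 0.13), Pabpc4 (-0.28 to 0.03) and Papola (-0.25 to 0.01), and in D7E against WTA that of Exosc10 (-0.25 to 0.10). Over these probes, comparisons and alternatives, 523 values kept their direction and side of the threshold, 7 passed it and 14 reversed. Signals near background limit Cpsf6, Cnot3, Rbbp6, Btg2 and Exosc3 most.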
